A study of Mus musculus with 8 samples.

Results

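A set of 54 mitosis and kinetochore genes was followed in regulatory T cells (Treg) of bone marrow (BM-Treg) and spleen (SP-Treg). The set holds mitotic cyclins, mitotic kinases, and genes of the spindle checkpoint, kinetochore, spindle, cytokinesis and chromosome structure, together with a pair of transcription factors of late cell cycle genes. Members were chosen by gene symbol, with earlier results of these data known, and all 54 were found among the 38215 genes of the deposited tables. All 54 also passed the expression filter, which kept 13397 genes, and the smallest rounded expected count of a member in any library was 20.

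RNAseq was performed on FoxP3+ cells sorted from B6.FoxP3-GFP mice aged 12 weeks (labelled genotype C57Bl/6), with 4 libraries per tissue. FoxP3 is the transcription factor that defines Treg, and in these mice it is marked by a green fluorescent protein, by which the cells were sorted. The labels name no treatment. By their labels, the first 3 marrow libraries (BM-Treg replicates 1 to 3) are female and of batch 1, and the fourth is male and of batch 3, as are the 4 spleen libraries.

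At mitosis, cyclin B bound to CDK1 drives entry, the kinetochores on the centromeres attach chromosomes to spindle microtubules, and the spindle checkpoint holds the anaphase promoting complex (APC/C) until every chromosome is attached. APC/C with CDC20 then has cyclin B and securin degraded, the sister chromatids part, and cytokinesis divides the cell. Most of these genes are transcribed late in the cell cycle through the MuvB, B-MYB and FOXM1 complexes, and their transcripts are therefore widely read as a mark of dividing cells. Treg in healthy mice divide more than other CD4+ T cells.

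Libraries held from 12427136 to 21921252 expected counts. The 7 Treg and T cell markers (Foxp3, Il2ra, Ctla4, Ikzf2, Tnfrsf18, Cd3e and Cd4) summed to between 7470 and 8868 CPM (read counts per 1000000 counts of the TMM-scaled library size) in BM-Treg and between 8174 and 8972 CPM in SP-Treg, so the labelled cell type was met in all 8 libraries. The labelled sex was not met in BM-Treg replicates 1 and 2. These libraries are labelled female, yet 4 Y-linked genes (Ddx3y, Uty, Kdm5d and Eif2s3y) summed to 154 CPM in replicate 1 and 63.4 CPM in replicate 2, beside Xist at 1232 and 2270 CPM, so that both held male and female transcripts side by side. In replicate 3 the Y-linked genes summed to 2.02 CPM with Xist at 2275 CPM, and in the 5 libraries of batch 3 they summed to between 234 and 286 CPM with Xist at no more than 2.63 CPM. Results are therefore also given without BM-Treg replicates 1 and 2, a setting chosen after these values had been seen.

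Promoter sequences are shown for the members on which the results below turn: Cenpa and Anp32e, which differed between the tissues, Ccnb2, Cdc20, Mki67 and Top2a, which were high and low in the same marrow libraries as most other members, and Cdk1, the kinase of mitotic entry. Promoters of late cell cycle genes are known for the cell cycle genes homology region (CHR), which reads TTTGAA in its usual form and TTCGAA in a less common one, and for boxes of the letters CCAAT. Each sequence is 120 bases of RefSeq (GRCm38.p6), 5′ to 3′ on the strand of the gene, and ends just before the outermost annotated start of the gene. Capitals mark the letters of either motif on either strand, so that the usual CHR form appears as TTCAAA when it lies on the other strand, and the box then appears as ATTGG. In these windows no base belongs to both motifs. Some matches of the longer promoters counted below lie outside the windows, among them the CHR letters and both CCAAT boxes of Cenpa and the CHR letters of Anp32e and Ccnb2.
Ccnb2, chr9:70421555-70421674, minus strand: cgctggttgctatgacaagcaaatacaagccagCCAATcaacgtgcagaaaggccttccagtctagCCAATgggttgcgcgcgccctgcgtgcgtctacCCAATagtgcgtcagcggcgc
Cdk1, chr10:69352939-69353058, minus strand: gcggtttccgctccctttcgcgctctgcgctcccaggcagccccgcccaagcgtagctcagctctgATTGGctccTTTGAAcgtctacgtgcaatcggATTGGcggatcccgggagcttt
Cdc20, chr4:118437353-118437472, minus strand: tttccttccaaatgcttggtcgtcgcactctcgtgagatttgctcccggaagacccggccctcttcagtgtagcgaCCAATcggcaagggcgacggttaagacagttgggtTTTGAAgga
Mki67, chr7:135716380-135716499, minus strand: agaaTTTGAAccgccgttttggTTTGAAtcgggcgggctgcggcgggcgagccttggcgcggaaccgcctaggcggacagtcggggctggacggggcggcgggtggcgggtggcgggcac
Top2a, chr11:99024190-99024309, minus strand: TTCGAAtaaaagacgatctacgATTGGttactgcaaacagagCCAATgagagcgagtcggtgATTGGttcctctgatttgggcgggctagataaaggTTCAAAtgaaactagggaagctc
Cenpa, chr5:30666657-30666776, plus strand: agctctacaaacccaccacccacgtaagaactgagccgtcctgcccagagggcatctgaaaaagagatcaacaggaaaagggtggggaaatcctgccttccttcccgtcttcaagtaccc
Anp32e, chr3:95929126-95929245, plus strand: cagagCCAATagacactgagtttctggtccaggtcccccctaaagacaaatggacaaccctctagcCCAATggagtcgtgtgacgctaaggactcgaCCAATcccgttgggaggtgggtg

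Over a promoter of 300 bases (250 before and 50 after each RefSeq start), 44 of the 54 members had a sequence, with 47 promoters in all. CHR letters were in 80.9% of these promoters and in 19.2% of all 32851 promoters of the same length. CCAAT boxes were in 78.7% against 37.4%, and both were in 72.3% against 7.52%. Among genes of DNA replication, CHR letters were in 21.3% of 47 promoters and both motifs in 10.6%, so both motifs were less frequent there than among the members. A match describes letters only and was not read as a bound site.

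In BM-Treg against SP-Treg the mitosis and kinetochore genes showed no common direction. The quasi-likelihood test of edgeR, with p adjusted by Benjamini-Hochberg over all genes, called 2 of 54 members (3.70%), whereas it called 8.75% of all genes tested (1172 of 13397; 3.72% higher in BM-Treg and 5.02% lower). Cenpa, the histone variant that marks centromeres, was higher in BM-Treg, and Anp32e, a chaperone that takes the histone variant H2A.Z off chromatin, was lower. The median log2 fold change was -0.01 over the members and -0.01 over all genes, with 25 members above 0 and 29 below. Values ran from -0.77 (Anp32e) to 0.89 (Cdc25c). An unadjusted p under 0.05 was reached by 7 members (13.0%), which were Cenpa, Anp32e, Cdc25c, Cdc20, Smc2, Top2a and Mybl2, against 23.3% of all genes. DESeq2's own test and limma-voom called Cenpa and Anp32e and no other member. In bulk RNA a difference in the share of dividing cells cannot be told apart from a difference in RNA per dividing cell.

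The 95% confidence interval of the fold change spanned 0 for 47 of the 54 members and stayed within 1 log2 unit of 0 for 47 members. In simulated data with these depths, the test called 10.4% of 67 genes changed by a log2 fold of 0.5, 62.7% of 67 changed by 1 and 77.3% of 66 changed by 2. Changes of 0.5 or 1 could thus have been missed, and the count of calls does not show that the tissues were alike. Among the 54 members, the lowest bound of a 95% confidence interval was -1.09 (Mybl2) and the highest was 1.68 (Cdc25c). No member's interval thus reached a change of 2 in either direction. The share called was taken over all genes, and for the members alone it was not tested.

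**Figure D1:**
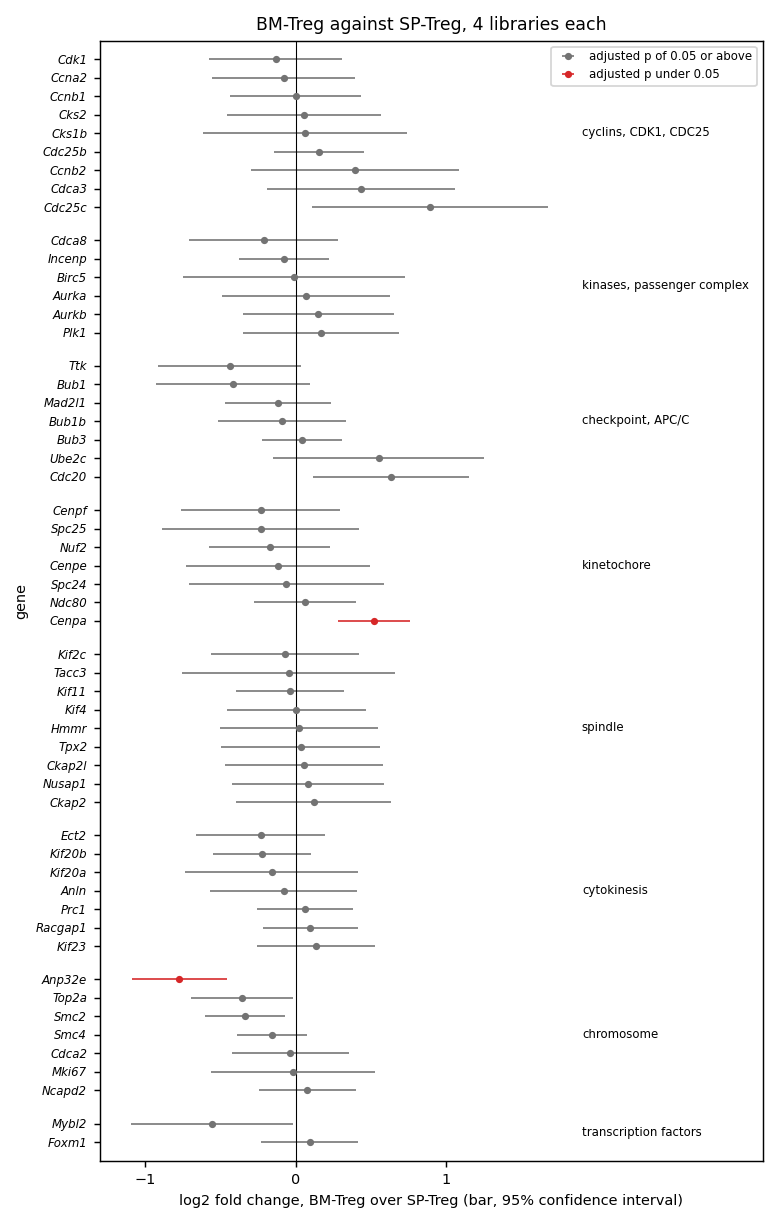
Log2 fold change of BM-Treg over SP-Treg for each of the 54 genes by role (horizontal axis), with points for edgeR's estimate and bars for its 95% confidence interval, from 4 libraries per tissue. Red marks the genes with an adjusted p under 0.05, which are Cenpa at 0.52 and Anp32e at -0.77, and most other intervals cross 0.

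Among the cyclins, CDK1 and their partners, 0 of 9 members were called. On the FPKM scale, which allows levels of different genes to be set side by side, Ccna2 averaged 30.1 in BM-Treg and 34.0 in SP-Treg, Ccnb2 26.5 and 19.2, and Ccnb1 11.1 and 11.2. Ccna2 (cyclin A2, needed from S phase to early mitosis) was at 73.6, 48.6, 41.4 and 86.6 CPM in BM-Treg replicates 1 to 4 and at 60.9, 59.1, 79.0 and 64.8 CPM in SP-Treg replicates 1 to 4. Ccnb1, the main mitotic cyclin, was at 22.8, 17.1, 13.0 and 25.8 CPM in BM-Treg and at 19.4, 15.4, 23.8 and 19.8 CPM in SP-Treg. For both cyclins BM-Treg replicates 1 and 4 lay above replicates 2 and 3, and the tissues overlapped. The log2 fold changes were -0.08 (SE 0.21) for Ccna2 and -0.001 (SE 0.20) for Ccnb1. Ccnb2, the second B-type cyclin, was at 50.8, 28.8, 20.5 and 52.9 CPM in BM-Treg and at 26.3, 23.0, 37.8 and 28.9 CPM in SP-Treg. Its marrow libraries thus held both the highest and the lowest value of the 8, and the log2 fold change of 0.39 (SE 0.30) did not pass the test (edgeR adjusted p = 0.491).

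Cdk1, the kinase that B cyclins activate, was at 7.79, 8.58, 7.19 and 12.5 CPM in BM-Treg and at 9.06, 8.94, 9.13 and 12.2 CPM in SP-Treg. Replicate 4 was the highest in each tissue, and the log2 fold change was -0.13 (SE 0.21). Cks1b, a small CDK-binding protein, was at 18.3, 12.2, 11.8 and 31.8 CPM in BM-Treg and at 16.0, 13.3, 20.8 and 20.2 CPM in SP-Treg. BM-Treg replicate 4 stood above every other library for Cks1b, and the log2 fold change between tissues was 0.06 (SE 0.31). Cks2, its paralog, was at 6.63, 6.12, 6.49 and 9.28 CPM in BM-Treg and at 5.11, 5.59, 6.95 and 9.63 CPM in SP-Treg (log2 fold change 0.06, SE 0.24). Of the others, Cdc25c, a phosphatase that activates CDK1, had the largest positive fold change of all members (log2 0.89, 95% CI 0.11 to 1.68) but was also the lowest member by FPKM, at 2.83 in BM-Treg and 1.46 in SP-Treg, and did not pass the test (edgeR adjusted p = 0.156). Cdca3 was at 0.43 and Cdc25b at 0.16, and neither passed.

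Mitotic kinases and the chromosomal passenger complex (Aurora B with INCENP, survivin and borealin, which corrects faulty attachments) gave 0 of 6 calls. Plk1 (Polo-like kinase) was at 21.8, 15.7, 12.01 and 26.1 CPM in BM-Treg and at 11.9, 15.2, 19.3 and 20.4 CPM in SP-Treg. Aurkb was at 32.1, 24.3, 20.3 and 37.6 CPM in BM-Treg and at 18.8, 20.0, 31.7 and 32.1 CPM in SP-Treg. Birc5, which encodes survivin, was at 22.5, 15.8, 10.4 and 32.2 CPM in BM-Treg and at 18.3, 16.7, 17.0 and 28.7 CPM in SP-Treg. Each of these genes was lowest of marrow in replicate 3 and highest in replicate 4, and the SP-Treg libraries overlapped with them. The log2 fold changes were 0.17 (SE 0.24) for Plk1, 0.15 (SE 0.23) for Aurkb and -0.01 (SE 0.33) for Birc5. Aurka, Incenp and Cdca8 (borealin) were at 0.07, -0.08 and -0.21.

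In the spindle checkpoint and APC/C group, 0 of 7 members were called by edgeR, with the largest positive fold changes for genes of APC/C activity and the largest negative ones for checkpoint kinases. Ube2c, the ubiquitin-conjugating enzyme of APC/C, was at 88.8, 58.2, 46.0 and 101 CPM in BM-Treg and at 31.3, 45.3, 70.9 and 52.7 CPM in SP-Treg. Cdc20, the APC/C activator, was at 15.5, 10.9, 9.91 and 21.3 CPM in BM-Treg and at 6.83, 9.02, 10.2 and 10.9 CPM in SP-Treg. For both genes BM-Treg replicates 1 and 4 lay above all spleen libraries while replicate 3 lay among them. The log2 fold changes of 0.55 (SE 0.31) for Ube2c and 0.63 (SE 0.24) for Cdc20 did not pass the test (edgeR adjusted p = 0.328 and 0.127). Ttk and Bub1, checkpoint kinases, were at -0.44 and -0.42 and did not pass either (edgeR adjusted p = 0.252 and 0.316). Bub3, a checkpoint protein, was at 41.7, 46.2, 43.2 and 48.7 CPM in BM-Treg and at 51.8, 38.6, 37.3 and 46.6 CPM in SP-Treg. Its SD of log2 CPM over the marrow libraries, 0.10, was the smallest of all 54 members, and its log2 fold change was 0.04 (SE 0.13). Bub1b and Mad2l1 were at -0.09 and -0.11. Part of Ube2c (22.8% of its exon bases) overlaps Tnnc2 on the opposite strand, and since the library kit is not stated to keep strand, reads of the pair cannot be told apart there.

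In the kinetochore group 1 of 7 members was called. Cenpa (ENSMUSG00000029177, chr5:30666777-30674827) was at 54.4, 49.5, 50.01 and 62.1 CPM in BM-Treg and at 37.0, 35.5, 39.9 and 38.1 CPM in SP-Treg. All 4 marrow libraries lay above all 4 spleen libraries, a separation seen in this direction for 7.58% of all genes. Means were 54 ± 5.81 CPM and 37.7 ± 1.86 CPM (SD, n = 4), and the log2 fold change was 0.52 (SE 0.11, edgeR adjusted p = 0.0101). The adjusted p was at most 0.0338 when any single library was left out, and it was 0.0491 without BM-Treg replicates 1 and 2 (log2 fold change 0.60). Within batch 3 the fold change was 0.74 with an edgeR adjusted p of 0.0819, where the single marrow library is assumed to vary like the spleen libraries. The other kinetochore members were not called. The NDC80 complex genes Ndc80, Nuf2, Spc24 and Spc25, which hold the microtubule, were at 0.06, -0.17, -0.06 and -0.23, and Cenpe and Cenpf, which sit on the outer kinetochore, were at -0.12 and -0.23.

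None of the 9 spindle genes was called, and their log2 fold changes stayed between -0.07 and 0.12. These genes encode motors (Kif11, Kif4 and the depolymerising Kif2c) and proteins that build or bundle spindle microtubules (Tpx2, Nusap1, Hmmr, Tacc3, Ckap2 and Ckap2l). By mean FPKM, Tacc3 was the highest of them (32.0 ± 22.3 in BM-Treg and 28.8 ± 3.80 in SP-Treg, SD, n = 4). Its marrow libraries ran from 17.0 to 64.2. The cytokinesis genes (Anln, Ect2, Racgap1, Prc1, Kif23, Kif20a and Kif20b), which place and close the cleavage furrow, also gave 0 of 7 calls, with log2 fold changes between -0.23 and 0.13. Of these, Kif20a shares 29.3% of its exon bases with Cdc23 on the opposite strand.

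The chromosome group held 1 call of 7, and both members whose tissues did not overlap with BM-Treg below (Anp32e and Smc2), against 8.57% of all genes for that direction. Anp32e (ENSMUSG00000015749, chr3:95929246-95947390) was at 168, 181, 179.5 and 247 CPM in BM-Treg and at 408, 341, 266 and 309.5 CPM in SP-Treg. Its highest marrow library, replicate 4, lay just under its lowest spleen library, replicate 3. Means were 194 ± 36.0 CPM and 331 ± 59.8 CPM (SD, n = 4), and the log2 fold change was -0.77 (SE 0.15, edgeR adjusted p = 0.00527). The adjusted p was at most 0.0229 with any single library left out. Without BM-Treg replicates 1 and 2 the call was lost (log2 fold change -0.61, edgeR adjusted p = 0.109), as it was within batch 3 (-0.41, adjusted p = 0.435) and with batch as a term (-0.42, adjusted p = 0.286). Against the same spleen libraries the fold change was -0.91 in marrow replicates 1 to 3, but the difference between replicate 4 and replicates 1 to 3 did not pass the test (0.49, edgeR adjusted p = 0.510).

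Mki67, which encodes the proliferation marker Ki-67, was at 1212, 800.3, 586 and 1407 CPM in BM-Treg and at 928, 912, 1159 and 1055 CPM in SP-Treg. Marrow replicates 1 and 4 lay above every spleen library and replicates 2 and 3 below every spleen library, so that the means of 1001 ± 375 CPM and 1014 ± 116 CPM (SD, n = 4) were close (log2 fold change -0.02, SE 0.24). Top2a, the topoisomerase that untangles sister chromatids, was at 256, 193, 157 and 267 CPM in BM-Treg and at 290.2, 234, 288 and 305 CPM in SP-Treg. Its values were lowest in marrow replicates 2 and 3 and overlapped between tissues, with a log2 fold change of -0.36 (SE 0.16) that did not pass (edgeR adjusted p = 0.188). Condensin genes were at -0.33 for Smc2 (edgeR adjusted p = 0.112), -0.16 for Smc4 and 0.08 for Ncapd2. By FPKM the most abundant members were Smc4 (383 in BM-Treg and 459.7 in SP-Treg), Anp32e (255 and 434), Mki67 (102 and 98.7) and Top2a (62.2 and 75.8).

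The transcription factors gave 0 of 2 calls. Foxm1, the late cell cycle activator, was at 46.4, 34.8, 27.1 and 42.8 CPM in BM-Treg and at 33.9, 35.3, 37.4 and 35.0 CPM in SP-Treg. Mybl2, which encodes B-MYB, was at 10.2, 6.77, 5.08 and 11.3 CPM in BM-Treg and at 10.9, 8.94, 14.3 and 14.4 CPM in SP-Treg. The marrow libraries had the widest range for both genes, and the log2 fold changes were 0.09 (SE 0.15) for Foxm1 and -0.55 (SE 0.25, edgeR adjusted p = 0.1998) for Mybl2.

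**Figure D2:**
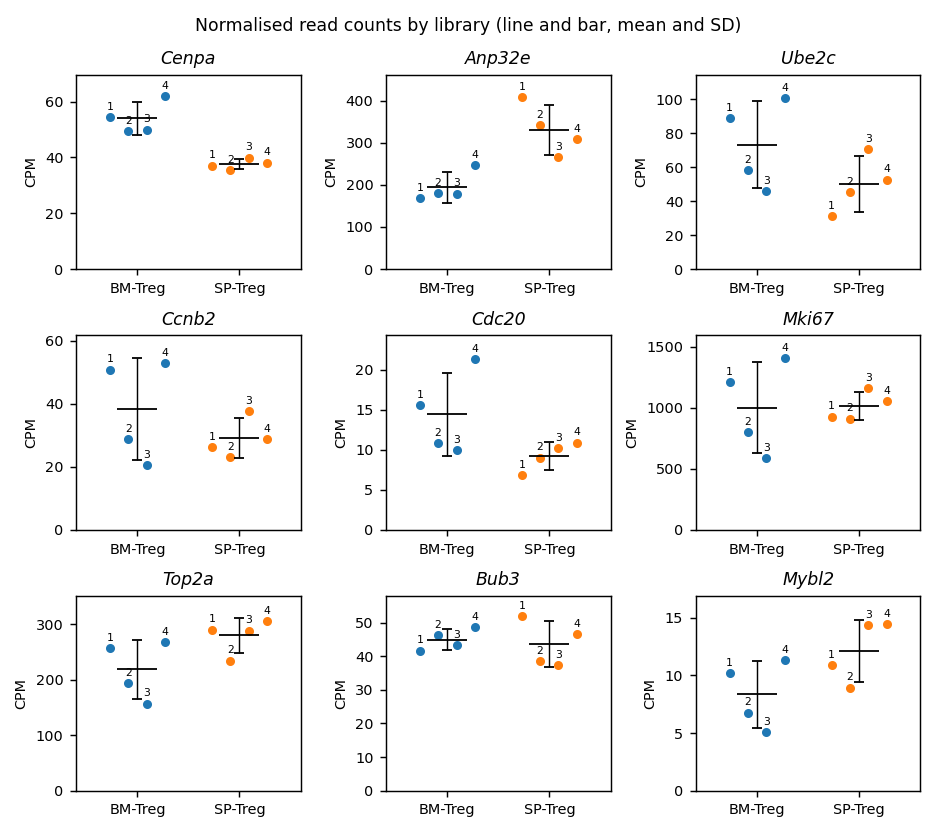
Normalised read counts (vertical axes, CPM from 0) of 9 of the genes in each library, with points numbered by replicate and a line and bar for the mean and SD of the 4 libraries. Cenpa and Anp32e separate the tissues, while Ube2c, Ccnb2, Cdc20 and Mki67 have marrow replicates 1 and 4 high and 2 and 3 low.

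The members were spread more widely over the marrow libraries than over the spleen libraries. The SD of log2 CPM over the 4 BM-Treg libraries had a median of 0.43 over the members and 0.22 over all genes tested, whereas over the SP-Treg libraries the medians were 0.22 and 0.24. The SD was larger in BM-Treg than in SP-Treg for 45 of 54 members (83.3%) against 44.6% of all genes. The members moved together: BM-Treg replicate 3 was the lowest marrow library for 44 members, and replicate 4 was the highest for 38 and replicate 1 for the remaining 16. Replicates 1 and 4 were both above replicates 2 and 3 for 48 members (88.9%), against 17.9% of all genes. This arrangement was noticed in these values and then counted in them, so the counts are a description with no test.

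Centred on the SP-Treg mean, the median log2 CPM of the members was 0.20, -0.22, -0.47 and 0.36 in BM-Treg replicates 1 to 4 and -0.10, -0.15, 0.11 and 0.18 in SP-Treg replicates 1 to 4. Over all genes these medians stayed between -0.02 and 0.02. Marrow libraries thus lay on both sides of the spleen libraries. From the lowest to the highest median, the marrow libraries were in the order 3, 2, 1 and 4, which was also the order of their summed Y-linked CPM (2.02, 63.4, 154 and 234), whereas the 4 spleen libraries lay between 258 and 286 CPM with different medians. The part of sex in the spread was not tested. Replicates 1 to 3 are of batch 1, and the part of batch was not tested either.

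**Figure D3:**
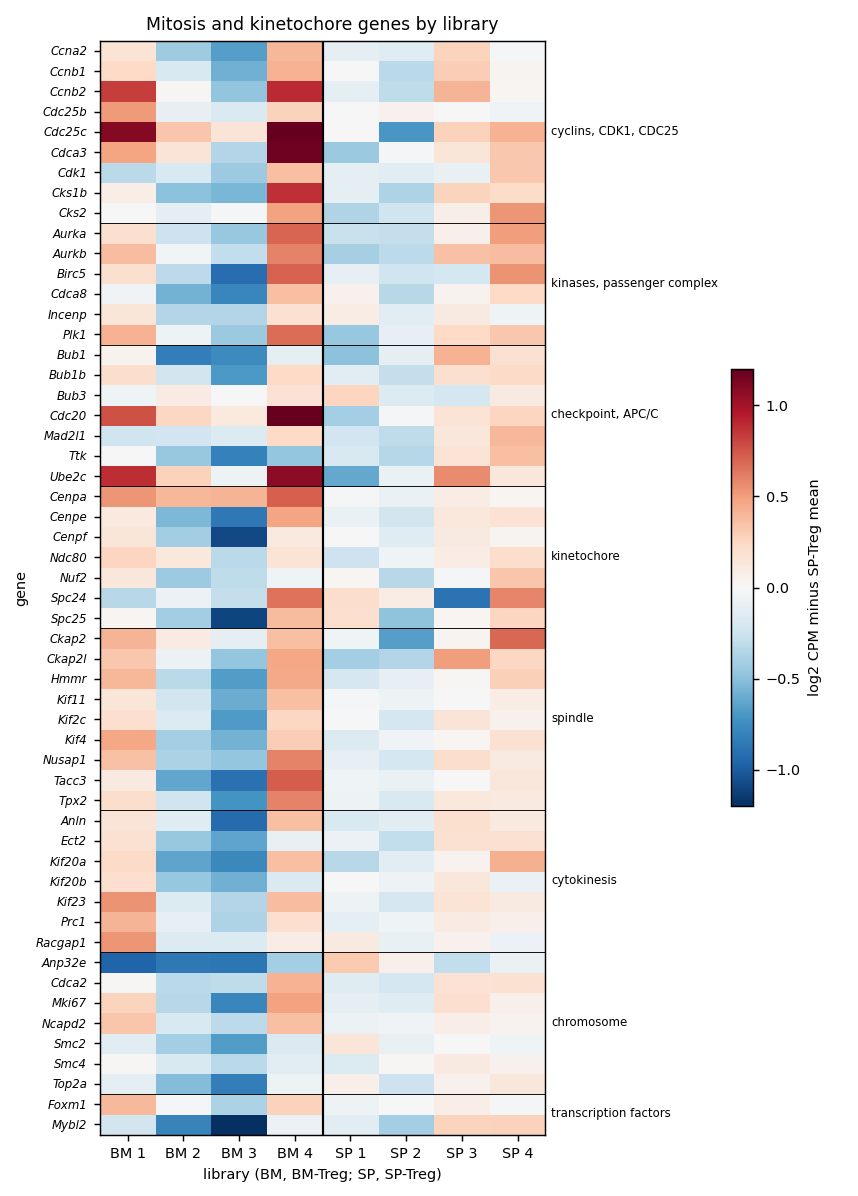
Log2 CPM of each of the 54 genes minus its SP-Treg mean (colour, from blue for lower to red for higher, with colours held at 1.2 beyond that size) in the 8 libraries (columns), by role (blocks of rows). Most genes are red in BM-Treg replicates 1 and 4 and blue in replicates 2 and 3, while Cenpa is red and Anp32e is blue in all 4 marrow libraries.

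BM-Treg replicate 4, the marrow library of batch 3, was compared with replicates 1 to 3 in a fit in which it is assumed to vary like the other groups. The log2 difference was above 0 for 52 of 54 members (all but Ttk and Racgap1), against 49.02% of all genes, with a median of 0.54 over the members and -0.01 over all genes. The group medians ran from 0.19 for cytokinesis to 0.73 for the kinases and passenger complex. edgeR called 0 members in this comparison, DESeq2 and limma-voom also called 0, and edgeR called only 12 of all genes (0.0896%). An unadjusted p under 0.05 was reached by 18 members (33.3%), against 8.91% of all genes. The largest differences were those of Cks1b at 1.18 (SE 0.29, edgeR adjusted p = 0.268), Tacc3 at 1.15 (SE 0.29, adjusted p = 0.307), Cdc25c at 1.097 (SE 0.47, adjusted p = 0.531) and Cdca3 at 1.05 (SE 0.33, adjusted p = 0.402). Without BM-Treg replicate 1 Tacc3 was called, at 1.48. Against replicate 3 alone, with replicates 1 and 2 left out, the median difference was 0.91 and again 0 members were called.

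The sign of the difference from spleen depended on which marrow libraries were used. BM-Treg replicate 4 against the 4 SP-Treg libraries, all of batch 3 and male, gave a median log2 fold change of 0.37 over the members, with 44 of 54 above 0 (81.5%, against 49.5% of all genes). An unadjusted p under 0.05 was reached by 15 members (27.8%, against 15.5% of all genes), and edgeR called 0 members (0.732% of all genes were called). BM-Treg replicates 1 to 3 against the same spleen libraries gave a median of -0.19, with 14 of 54 above 0 (25.9%, against 47.8% of all genes) and 2 called, again Cenpa and Anp32e (7.32% of all genes were called). Both comparisons use the same spleen libraries. For Mki67 the values were 0.49 and -0.23, for Birc5 0.69 and -0.32, and for Ccna2 0.41 and -0.28. Cenpa kept its direction at 0.74 and 0.45, as did Cdc20 at 1.23 and 0.39 and Ube2c at 1.03 and 0.36. Batch, labelled sex and the single marrow library of batch 3 cannot be told apart in this design.

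Other genes of mitosis, cohesin, condensin and APC/C were also compared between the tissues. Of 94 such genes, edgeR called 3 (3.19%), and the median log2 fold change was -0.02. Pttg1, which encodes securin, the anaphase inhibitor that APC/C has degraded, was higher in BM-Treg at 0.48 (edgeR adjusted p = 0.0375). Kntc1, of the kinetochore RZZ complex, was lower at -0.72 (adjusted p = 0.0383), and Cdc25a, a CDK-activating phosphatase, was lower at -0.57 (adjusted p = 0.0362). All 3 lost the call when some single libraries were left out: Pttg1 and Kntc1 remained called in 2 of 8 such fits and Cdc25a in 1. Without BM-Treg replicates 1 and 2, 1 of the 94 was called (Kntc1 at -0.98), against 2.55% of all genes. Marrow replicates 1 and 4 were above 2 and 3 in 47 of the 94 (50%), against 17.9% of all genes. For the genes of DNA replication and those of G1, RB and E2F given below, the shares were 42.9% and 46.4%.

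Genes of DNA replication act in S phase, before mitosis. Of 49 such genes, 13 were called, all lower in BM-Treg (26.5%, against 5.02% of all genes called lower), and 45 of 49 had a fold change below 0, with a median of -0.33. The replicative helicase genes Mcm2, Mcm3, Mcm5, Mcm6 and Mcm7 were at -0.62, -0.62, -0.94, -0.94 and -0.46, and the licensing factor Cdc6 was at -1.25 (edgeR adjusted p = 0.00175). Mcm6 was at 58.4, 62.6, 71.1 and 71.9 CPM in BM-Treg and at 162, 112, 110.0 and 124 CPM in SP-Treg, without overlap. The rest of the 13 were Mcm10, Orc1, Rfc1, Lig1, Fen1, Rrm1 and Dut, between -1.15 and -0.42. Of the 13, 8 were called in each fit with a single library left out, and the others in fewer (Dut in 4 of 8 fits, Mcm10 in 3, Mcm7 and Orc1 in 2 and Rfc1 in 1). Without BM-Treg replicates 1 and 2, Mcm6 (-0.80) and Cdc6 (-1.28) were called (4.08% of the 49, against 2.55% of all genes). The median was then -0.35, with 38 of 49 below 0. The median of the replication genes lay below the SP-Treg mean in all 4 marrow libraries (-0.29, -0.44, -0.48 and -0.16 in replicates 1 to 4). BM-Treg replicates 1 to 3 against spleen gave a median log2 fold change of -0.38, with 3 of 49 above 0. For replicate 4 against spleen, within batch 3, the median was -0.15, with 19 of 49 above 0. When batch was added to the model, edgeR called 0 of these 13, while it called 258 of all 13397 genes. The parts of batch, labelled sex and tissue in these values cannot be told apart.

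**Figure D4:**
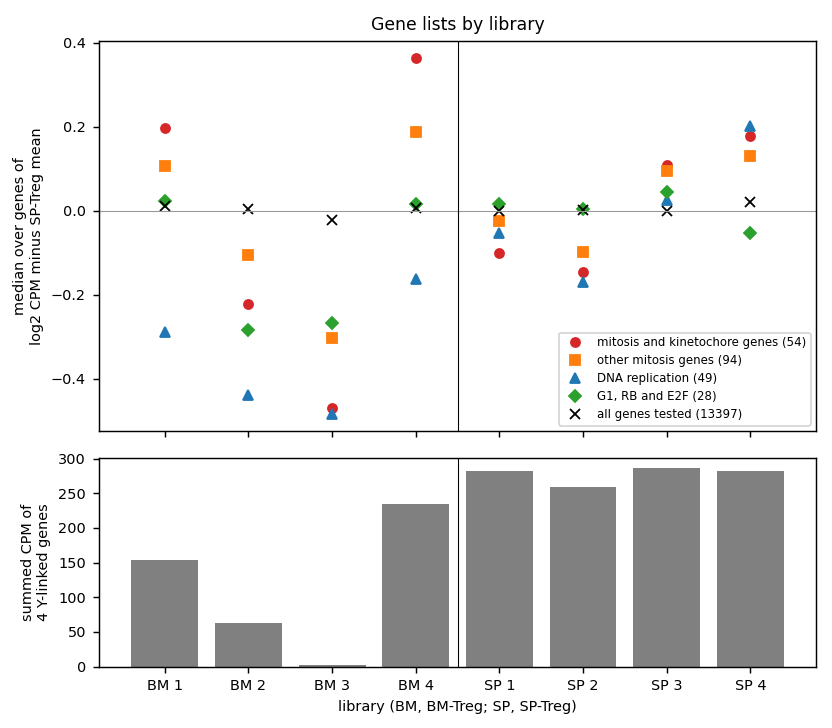
Median over the genes of each list of log2 CPM minus the SP-Treg mean (upper panel) and the summed CPM of 4 Y-linked genes (lower panel) in each library. The mitosis and kinetochore genes run from -0.47 in BM-Treg replicate 3 to 0.36 in replicate 4, and the replication genes are below 0 in all 4 marrow libraries.

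Lists of markers of other cell types, among them cells that divide in marrow, were compared between the tissues. The 12 erythroid markers summed to between 43.9 and 65.7 CPM in BM-Treg and between 57.3 and 547 CPM in SP-Treg, the 9 neutrophil and myeloid progenitor markers to between 1.32 and 10.04 and between 0.22 and 16.9, the 7 B cell markers to between 11.1 and 14.1 and between 6.33 and 95.8, and the 5 stem and progenitor markers to between 2.34 and 3.76 and between 1.51 and 3.91. Of the progenitor markers, Gata2 was at 0 in all 4 BM-Treg libraries and in 3 of the SP-Treg libraries, whereas Meis1 was at 2.91, 1.72, 1.05 and 1.92 CPM in BM-Treg and between 0.51 and 0.92 CPM in SP-Treg, without overlap. Igll1, of the B cell list, was at 0 in all 8 libraries. The 4 plasma cell markers summed to between 51.5 and 74.6 CPM in BM-Treg and between 64.1 and 94.1 in SP-Treg. The 4 pDC markers summed to between 48.0 and 57.8 and between 25.9 and 63.1, and the 2 CD8 T cell markers to between 10.9 and 12.6 and between 13.2 and 41.1. In BM-Treg, single genes made up much of some sums. Xbp1 was at 51.4 to 74.3 CPM for plasma cells and Ccr9 at 29.0 to 39.6 CPM for pDC. Tfrc was at 26.3 to 29.6 CPM for the erythroid list. Siglech, of the pDC list, was at most 0.82 CPM. Sdc1, of the plasma cell list, was at most 0.09 CPM in BM-Treg and between 0.36 and 0.59 CPM in SP-Treg. Jchain, Mzb1 and Xbp1 overlapped between the tissues. The CD8 markers alone separated the tissues (exact two-sided permutation p = 0.0286, the smallest that 4 against 4 libraries can give, adjusted over the 8 lists 0.229). Over the marrow libraries, the B cell list (12.2, 11.1, 11.2 and 14.1 CPM in replicates 1 to 4) and the pDC list (52.5, 48.0, 48.2 and 57.8 CPM) were higher in replicates 1 and 4 than in 2 and 3, as the members were, and the other lists were not. Their part in the spread of the members was not tested.

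For each member the share of expected counts assigned to its leading transcript was also taken, an estimate that is uncertain where transcripts overlap. The same transcript led in both tissues for 52 of 54 members, 18 of which have a single transcript in the tables, and in all 8 libraries for 43. The exceptions to a shared lead were Aurkb and Smc4. The 18 members with a single transcript cannot differ in this share. For Smc2, Foxm1 and Mad2l1 the share did not overlap between the tissues, which was not tested. How often it separates the tissues over all genes was not computed, so no result is read from these members. Smc2 was split within spleen (43.6, 84.8, 88.0 and 49.4% in SP-Treg replicates 1 to 4). For Mad2l1 the nearest libraries of the tissues were at 65.9% and 66.7%. Smc2 was at 93.4 ± 1.68% in BM-Treg and 66.5 ± 23.2% in SP-Treg (SD, n = 4). Foxm1 was at 77.1 ± 7.05% and 88.3 ± 4.25%, and Mad2l1 at 60.1 ± 5.58% and 71.2 ± 4.51%. The leading Aurkb transcript took 50.4 ± 26.9% of the gene's counts in BM-Treg and 24.8 ± 11.9% in SP-Treg (SD, n = 4), with a spread as large as the difference. For Cenpa, with 7 transcripts, the leading one took 37.4 ± 4.80% and 35.2 ± 1.81% (SD, n = 4), and for Anp32e, with 10, it took 33.3 ± 3.81% and 36.2 ± 3.43%, so for either gene the share differed between the tissues by less than its SD in BM-Treg.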

How the data were processed

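FoxP3+ cells were sorted from BM and SP, and RNA (15 ng) was amplified (SPIA, NuGEN) and sequenced from a single end (80 nt reads), with 4 libraries per tissue. The authors deposited expected counts and FPKM values per gene and per transcript, and the submitters' processing notes name cutadapt 1.9, STAR 2.5.2a, RSEM 1.2.30 and GRCm38. The annotation is not given in the sources used here. FPKM values were deposited by the authors as counts per transcript length and depth. The paper names no test for the RNAseq. All 8 libraries were mapped to groups from their labels, and 0 columns were left without a match. The median library held 19025998 expected counts among BM-Treg and 13108535 among SP-Treg. Errors did not rest on counting error alone, since edgeR's model adds the spread between libraries, which the methods call biological replicates. No pair of libraries was a duplicate (chi-square per degree of freedom between 14.2 and 92.4 for genes averaging 50 counts or more).

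Expected counts were rounded to whole numbers, filtered with edgeR's filterByExpr on the groups, scaled by TMM and tested with edgeR's robust quasi-likelihood test (Benjamini-Hochberg, threshold 0.05). CPM used TMM-scaled totals, and log2 CPM a prior count of 2. Marker lists were compared as log2(summed CPM + 0.5). The versions were edgeR 4.0.16, DESeq2 1.42.0 and limma 3.58.1 under R 4.3.3, and the test was tried on simulated data (4 false calls among 13197 unchanged genes). The members, the gene lists, their roles and the rule for named genes were chosen with earlier results of these data known. By that rule every called member and 18 listed members (Cenpa and Anp32e among them) are given in every library, and other members by fold changes and counts. All members matched a gene by symbol, and Sgol2a of the other mitosis genes had no match. The deposited coordinates overlap GENCODE M21 (GRCm38) for all 54 members and are identical for 33. Of the members, 16 share exon bases with another gene, 6 of them over more than 10% of their exon bases. Promoters were read from RefSeq.

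Each result was also computed with DESeq2's Wald test, with its size factors passed to edgeR, with limma-voom, with limma-trend on FPKM (pseudocounts of 1 and 0.1 on the log2 scale), with no filter beyond 1 count or with at least 10 counts in every library, without genes on X or Y, with batch as a covariate, within batch 3, with a block for the replicate number, and without each library in turn. Settings added once values were known were libraries thinned to the smallest total, BM-Treg replicates 1 and 2 left out, and the alternatives for the comparison within marrow.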

Additional observations from a re-analysis of the deposited data

Results flagged for a closer look

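Cdk1 in SP-Treg replicate 4 was at 12.2 CPM, with the other spleen libraries between 8.94 and 9.13 CPM, so this library stood far from the rest by Dixon's test. Mad2l1, a checkpoint protein, in BM-Treg replicate 4 was at 41.5 CPM, with the other marrow libraries between 29.6 and 31.3 CPM. Of 108 groups of 4 libraries (54 members in 2 tissues) these 2 stood out, fewer than the 1 in 20 that chance gives.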

How the results depend on the processing

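Cenpa was called in all fits but batch 3 alone, and Anp32e in all but batch 3 alone, batch as a term, and BM-Treg replicates 1 and 2 left out, of 21 alternatives. BM-Treg replicates 1 to 3 against SP-Treg is the fit without BM-Treg replicate 4. The replicate numbers did not pair the samples (correlations of deviations between -0.176 and 0.0595 for equal numbers). With the replicate number as a block, 948 genes and both members were called, the median over members was -0.05, and Cks1b was at -0.0175.

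In batch 3 alone, 0 members were called higher and 0 lower, all genes called were 98 (36 higher, 62 lower), and the median over members was 0.37. With batch as a term 0 members were called lower, and 258 genes were called (111 higher, 147 lower). With BM-Treg replicates 1 and 2 left out 0 members were called lower, and 342 genes were called (175 higher, 167 lower). limma-trend called 765 genes with a pseudocount of 1 (283 lower) and 728 with 0.1 (274 lower). DESeq2 called 781 genes higher and, between BM-Treg replicate 4 and replicates 1 to 3, 44 genes. With single libraries left out, genes called ran from 690 (without BM-Treg replicate 2) to 1041, genes called higher from 297 to 425, and genes called lower from 393 to 631. In the comparison within marrow, members called ran from 0 to 1 (Tacc3, without BM-Treg replicate 1) and genes called from 7 (without BM-Treg replicate 2) to 13. The causes were not tested.

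Members with fold changes near 0, none of them called, changed sign. In batch 3 alone Ccna2 was at 0.41, Ccnb1 at 0.42, Cdk1 at 0.37, Birc5 at 0.69 and Mki67 at 0.49, and with batch as a term they were at 0.39, 0.40, 0.35, 0.67 and 0.47. With BM-Treg replicates 1 and 2 left out Cdk1 was at 0.0171 and Birc5 at 0.0816. Birc5 was at 0.0410 and 0.0397 in the limma-trend fits, 0.00495 by DESeq2, 0.00613 without a filter and 0.0170 with at least 10 counts. Ccnb1 was at 0.00569 by DESeq2, 0.00413 with its size factors, 0.0145 without a filter, 0.0252 with at least 10 counts and 0.00941 after thinning. Mki67 was at 0.00785 with at least 10 counts, and Cks1b at -0.11 by limma-voom. With single libraries left out, values ran from -0.28 to 0.0749 for Ccna2, -0.16 to 0.16 for Ccnb1, -0.32 to 0.21 for Birc5, -0.23 to 0.17 for Mki67, -0.32 to 0.23 for Cks1b, -0.0886 to 0.27 for Cks2, -0.0195 to 0.34 for Plk1, -0.00583 to 0.29 for Aurkb and -0.0254 to 0.15 for Bub3. By the mean log2(CPM + 1) the plasma cell list was lower in BM-Treg by an exact permutation test (-0.95, unadjusted p = 0.0286).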

Other observations

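Genes of the G1 phase, RB and E2F, which act before mitosis, had 7 of 28 called by edgeR (25%, against 8.75% of all genes). Rbl2, a pocket protein of the repressor complex DREAM, was higher in BM-Treg at 0.56 (edgeR adjusted p = 0.00999), as was the CDK inhibitor gene Cdkn2d at 0.54 (adjusted p = 0.0422). Cdk6, a G1 kinase, was lower at -0.90 (adjusted p = 0.00446), as were E2f1 at -1.22, Tfdp1 at -0.72, E2f3 at -0.70 and E2f6 at -0.54. Rbl2 was at 547, 528, 522 and 538 CPM in BM-Treg and at 424, 408, 319 and 299 CPM in SP-Treg, without overlap, and its marrow libraries spread less than its spleen libraries. With batch as a term Cdk6 passed the test (edgeR adjusted p = 0.00374) and the other 6 genes did not, while 258 of all 13397 genes passed. Cdk6, Rbl2 and Tfdp1 were called in each of the 8 fits with a single library left out, E2f3 in 4, Cdkn2d in 3 and E2f1 and E2f6 in 2. Without BM-Treg replicates 1 and 2 edgeR called 0 of the 28 genes, against 2.55% of all genes. An unadjusted p under 0.05 was then reached by 9 of the 28, against 2391 of all 13397 genes. All 7 genes called in the main test kept their direction (Cdk6 at -0.97 and Rbl2 at 0.58).

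Among 18 other condensin and cohesin genes, 5 had all BM-Treg libraries below all SP-Treg libraries (8.57% of all genes did). They were Smc1a at -0.32 and Smc3 at -0.22, which form the cohesin ring, the cohesin regulators Wapl at -0.29 and Pds5a at -0.23, and Cdca5 (sororin) at -0.69. In batch 3 alone they were at -0.04, -0.28, -0.32, -0.17 and -0.39 in that order. Smc1a was at 203, 207, 196 and 260 CPM in BM-Treg replicates 1 to 4, and its lowest spleen library was at 266 CPM. None of these 5 passed edgeR's test (adjusted p between 0.0676 and 0.150), and Pttg1 was the only gene of the 18 that did.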
